A study of Mus musculus with 8 samples.

Results

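Fbxo32, Trim63, Fbxo30, Foxo1, Foxo3, Foxo4, Mstn and Klf15 were examined in hind limb tumours of the mouse as the main genes of skeletal muscle atrophy. They were taken by gene symbol from the deposited table of read counts, in which 8 of 26667 genes are these. The genes were chosen by their known role in atrophy, but with the difference in their counts between the genotypes of these same tumours already known. Their genotype differences are therefore given as a description, and nothing is read from a test of them. The tumours were undifferentiated pleomorphic sarcomas (UPS), and RNA was sequenced from 1 library of each of 8 tumours, the KP tumours numbered 5 to 8 and the KPH2 tumours numbered 1 to 4. Both groups carried Trp53 fl/fl on a mixed 129/C57BL/6 background, and KPH2 mice carried Epas1 fl/fl in addition, so that in those mice Cre removed HIF-2α together with p53. The labels name these genotypes Wild type and Epas1 -/-. Cre was delivered by adenovirus (Ad-Cre) injected into the leg muscle of mice of both sexes, whose ages the labels do not give. Only infected cells and their descendants carry the deletions, so other cells in the same section keep Epas1, and which cells these were was not measured. By PCR, the study found Epas1 efficiently deleted in KPH2 tumours. In the study 1 knockout tumour was set aside on technical grounds, and this was taken to be KPH2 1 because it is absent from the smaller of the deposited tables of transformed values. Its values are therefore given apart, and differences refer to KPH2 2 to KPH2 4 against KP 5 to KP 8 unless all 8 tumours are named.

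Skeletal muscle loses mass when protein is broken down faster than it is made, and much of that breakdown runs through ubiquitin ligases, enzymes that tag proteins for the proteasome. Fbxo32 (atrogin-1 or MAFbx) is the substrate-binding subunit of an SCF ligase and Trim63 (MuRF1) is a RING ligase of the sarcomere. Both are classic atrophy genes, made in skeletal and cardiac muscle, and Fbxo32 transcripts are also known from other tissues and tumours. Foxo1, Foxo3 and Foxo4 encode the forkhead factors that switch both ligases on in fasting, denervation or glucocorticoid excess. Insulin and IGF1 keep these factors out of the nucleus through AKT. Mstn encodes myostatin, a secreted TGF-β family inhibitor of muscle growth made mainly by muscle fibres. Fbxo30 (MUSA1) is an F-box ligase subunit that BMP signalling holds down in muscle. Klf15 is a zinc-finger factor induced by glucocorticoids that raises amino acid breakdown in muscle.

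Promoters are shown for the 3 members with a motif other than an E-box before the start site, and each is the 250 bases before the RefSeq start of GRCm38.p6, written 5′ to 3′ on the strand of the gene. RefSeq entries matched 6 of the 8 members, all but Fbxo32 and Foxo4. These were searched on both strands for GTAAACA (FOXO element), AGAACA (glucocorticoid receptor hexamer), CAGACA (SMAD box), ACGTG (the core of the hypoxia response element) and CANNTG (E-box). Capitals mark every match except E-boxes.
Trim63, chr4:134314870-134315119, plus strand: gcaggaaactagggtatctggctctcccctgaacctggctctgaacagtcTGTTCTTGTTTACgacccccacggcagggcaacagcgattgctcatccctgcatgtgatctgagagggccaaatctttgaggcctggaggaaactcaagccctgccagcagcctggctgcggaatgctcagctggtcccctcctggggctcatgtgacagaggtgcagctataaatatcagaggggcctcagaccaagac
Mstn, chr1:53061390-53061639, plus strand: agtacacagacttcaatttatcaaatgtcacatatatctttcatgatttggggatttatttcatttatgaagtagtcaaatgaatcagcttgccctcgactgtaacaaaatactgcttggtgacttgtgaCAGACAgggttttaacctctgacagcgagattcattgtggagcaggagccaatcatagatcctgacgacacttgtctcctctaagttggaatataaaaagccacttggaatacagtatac
Klf15, chr6:90462326-90462575, plus strand: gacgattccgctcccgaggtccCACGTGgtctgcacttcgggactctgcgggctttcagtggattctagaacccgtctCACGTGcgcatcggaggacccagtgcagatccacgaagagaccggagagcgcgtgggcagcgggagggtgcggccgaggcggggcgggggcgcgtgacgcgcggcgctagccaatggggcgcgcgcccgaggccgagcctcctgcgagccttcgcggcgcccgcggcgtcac
In Trim63 the capitals hold TGTTCT, 200 to 195 bases before the start, and directly after it TGTTTAC, 194 to 188 bases before the start, which are the reverse complements of AGAACA and GTAAACA. The FOXO element occurred in 3.17% of the 250-base windows of 32851 RefSeq promoters and AGAACA in 16.1%, and among the 6 members Trim63 alone held either. Mstn held 1 SMAD box 120 to 115 bases before its start, a motif present in 17.1% of the windows. Klf15 held CACGTG at 2 places, 228 to 223 and 172 to 167 bases before its start, and there ACGTG is read on both strands and lies within an E-box. ACGTG occurred in 16.6% of all windows, and among the 6 members only Klf15 held it. The Klf15 start used lies inside the annotated gene, which begins at base 90461043. E-boxes (CANNTG) lay in 66.2% of all windows and in 4 of the 6 member windows. These are matches of letters, and binding was not measured.

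The libraries were made from RNA of formalin-fixed, paraffin-embedded sections, and their total counts ran from 6463221 to 13155510. Epas1 itself ran from 59.6 to 85.5 CPM in the 4 KP tumours and from 31.97 to 54.2 CPM in the 4 KPH2 tumours, without overlap, where CPM is counts per 1e+06 counts of the library size after TMM scaling, which sets the libraries to a common composition. This count covers the whole gene, so it does not separate the deleted exons from the rest. UPS has no marker of its own against which the label could be checked. The 30 marker genes of skeletal muscle fibres were counted in every tumour, none at 0, and their mean log2 CPM (the muscle score) ran from 3.36 to 4.58 in KP tumours and was 6.61, 7.26 and 4.92 in KPH2 2, 3 and 4 and 3.40 in KPH2 1. The 45S ribosomal RNA gene Rn45s took 1.08% to 2.79% of the counts in KP tumours and 3.58% to 9.83% in the 4 KPH2 tumours, again without overlap. Its part in the differences below was not tested. All 8 members passed the filter of edgeR on low counts, and 1 (Fbxo32) was among the 1.24% of 14867 tested genes called higher at an adjusted p under 0.05 by the quasi-likelihood test over the 7 tumours, which restates how the genes were chosen. With KPH2 1 included no member was called. Dmp1, named here because it was the only gene called, then made up 0.00675% of 14805 genes, while 2172 genes (14.7%) had an unadjusted p under 0.05.

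Fbxo32 and Trim63 both had higher mean levels in KPH2 2 to 4 than in KP tumours. Fbxo32 separated the 3 KPH2 tumours from all KP tumours, whereas Trim63 did not. Fbxo32 (Entrez Gene 67731, chromosome 15 from 58175879 to 58214892 of GRCm38.p6, minus strand) measured 26.5 CPM in KP 5, 21.1 in KP 6, 14.3 in KP 7 and 25.1 in KP 8, while KPH2 2, 3 and 4 stood at 92.0, 74.3 and 71.3 CPM. The lowest of these 3 KPH2 tumours was thus well above the highest KP tumour. The excluded tumour KPH2 1, at 21.9 CPM, lay inside the KP range. The mean level was 21.7 ± 5.47 CPM (SD, n = 4) for KP against 79.2 ± 11.2 CPM (SD, n = 3) for KPH2, a ratio of 3.64, and the fitted log2 fold change was 1.85 with a standard error of 0.22. With KPH2 1 counted, it was 1.57 with a standard error of 0.40. The spread within a group was small, with the highest tumour 1.86 times the lowest in KP and 1.29 times the lowest among KPH2 2 to 4.

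Trim63 (Entrez Gene 433766, chromosome 4 from 134315120 to 134329629, plus strand) measured 6.65 CPM in KP 5, 1.96 in KP 6, 1.31 in KP 7 and 4.81 in KP 8. KPH2 2, 3 and 4 had 12.7, 13.8 and 5.62 CPM, and KPH2 1 had 1.88 CPM. KPH2 4 fell between KP 8 and KP 5, so the groups overlapped. The counts behind these levels were few, from 9 in KP 7 to 139 in KPH2 2. The mean for KP was 3.68 ± 2.496 CPM (SD, n = 4) against 10.7 ± 4.42 CPM (SD, n = 3) for KPH2, a ratio of 2.90, and the log2 fold change of 1.49 had a standard error of 0.55. Within KP the highest tumour was 5.07 times the lowest, a wider spread than for Fbxo32.

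Across the 8 members, the levels of KPH2 2 to 4 lay above those of every KP tumour for 2, Fbxo32 and Foxo4, against 9.01% of tested genes, and below them for none, against 7.83%. With KPH2 1 included this held for Foxo4 alone, against 3.74% of tested genes, and no member lay below, against 4.47%. Fitted log2 fold changes were positive for 6 members and negative for Fbxo30 and Klf15. Since the genes were chosen with this comparison known, nothing is read from these counts.

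**Figure D1:**
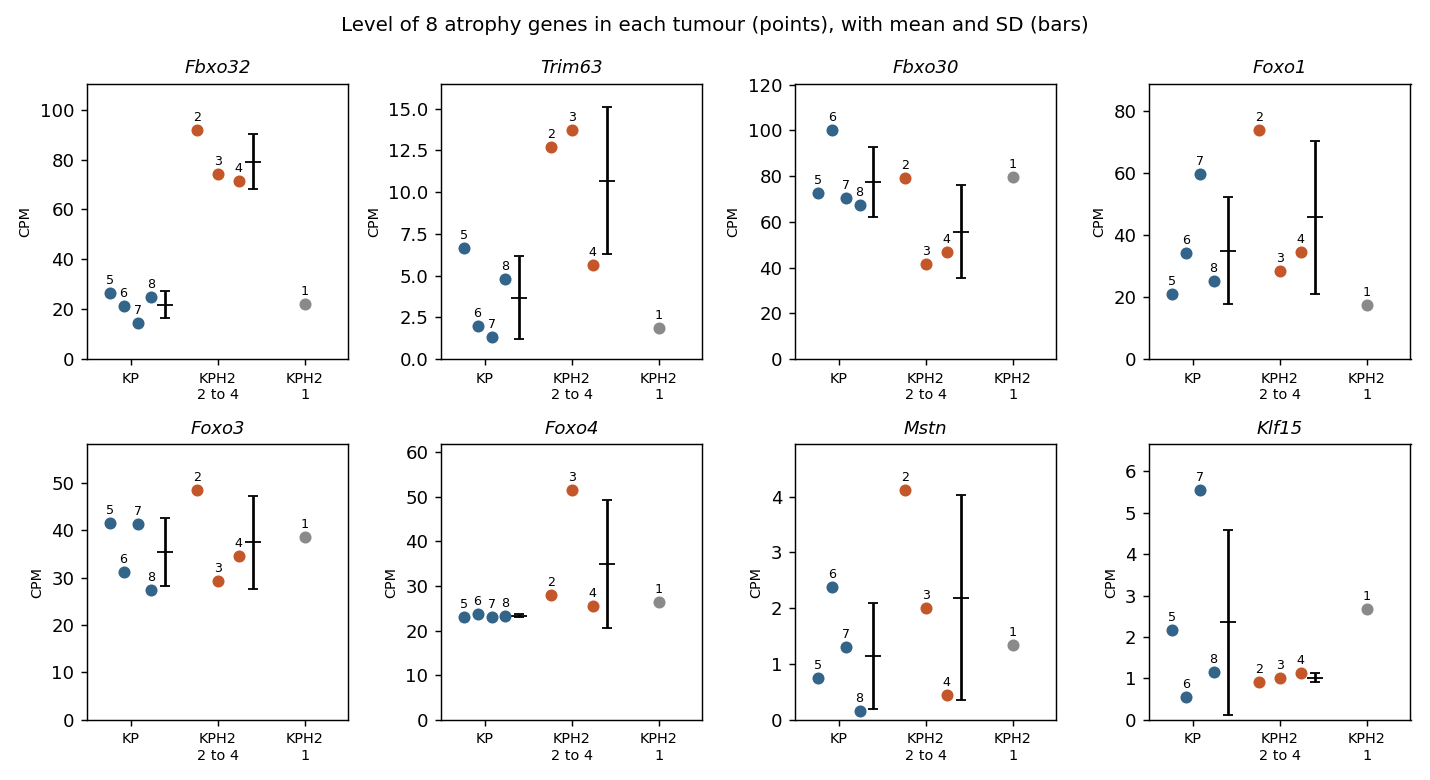
Level of each of the 8 genes in CPM (vertical axis from 0) in KP 5 to 8 (blue), KPH2 2 to 4 (orange) and KPH2 1 (grey), with bars for mean and SD. Fbxo32 in KPH2 2 to 4 sits at 71.3 to 92.0 CPM above all KP tumours, while Trim63, Fbxo30, Foxo1, Foxo3, Mstn and Klf15 overlap between groups.

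Set against the muscle score, the 2 ligases were placed differently in KPH2 4 and, taken as a difference from the score, also in KPH2 1. KPH2 4 had a muscle score of 4.92, above the 4.58 of KP 8 and the 4.54 of KP 5, the tumours nearest to it. The 30 fibre genes summed to 4374 CPM in KPH2 4, 3416 CPM in KP 5 and 3252 CPM in KP 8. Fbxo32 in KPH2 4 was 2.69 times its level in KP 5 and 2.85 times that in KP 8. Trim63 in KPH2 4 was 0.846 times its level in KP 5 and 1.17 times that in KP 8. In KPH2 4, Trim63 thus lay with the 2 KP tumours nearest in muscle score and Fbxo32 with KPH2 2 and 3. Fbxo32 was not alone in this, since 14 of the 30 muscle fibre genes were also higher in KPH2 4 than in all KP tumours. Its ratios were nevertheless high among fibre genes, since 2 of the 30 exceeded Fbxo32 in both, Eno3 among them. Eno3, the muscle enolase, was 3.94 times its level in KP 5 and 5.93 times that in KP 8, and Myf6, a myogenic regulatory factor, 3.25 and 3.02 times. Of 10 muscle progenitor markers, 8 exceeded Fbxo32 in both ratios, Pax3 among them against 0 counts in KP 5 and KP 8. Their summed level was 275.8 CPM in KPH2 4 against 69.8 and 88.9 CPM in KP 5 and KP 8. Desmin (Des), which mature fibres also make, carried most of the KP sums, and without it the values were 205.7 CPM against 12.7 and 7.72 CPM. At the low end, KPH2 1 had a muscle score of 3.40, between KP 7 at 3.36 and KP 6 at 3.61. Its levels of both ligases were near those of KP 6 and above those of KP 7. At the high end, KPH2 3 had the highest muscle score of all, 7.26, and more Trim63 but less Fbxo32 than KPH2 2.

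Expressed as log2 CPM minus the muscle score, Fbxo32 was at 0.20, 0.80, 0.50 and 0.08 in KP 5, 6, 7 and 8 and at -0.08, -1.04 and 1.24 in KPH2 2, 3 and 4, with 1.07 in KPH2 1. Relative to muscle markers, Fbxo32 was therefore not uniformly higher in KPH2 tumours, being lower than in any KP tumour in KPH2 2 and 3 and higher in KPH2 4 and 1. Trim63 minus the muscle score ran from -2.77 to -1.77 in KP tumours and was -2.92, -3.46 and -2.38 in KPH2 2, 3 and 4 and -2.34 in KPH2 1. It was below the KP range in the 2 KPH2 tumours richest in muscle transcripts and inside that range in KPH2 4 and KPH2 1. In fold change, the 30 muscle fibre genes ran from 1.61 to 3.89 on the log2 scale with a median of 2.18. All 30 exceeded Trim63, and 27 exceeded Fbxo32.

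The direct difference between the ligases, Fbxo32 minus Trim63 in log2 CPM, was 1.97, 3.31, 3.27 and 2.33 in KP 5, 6, 7 and 8. It was 2.84, 2.42 and 3.62 in KPH2 2, 3 and 4 and 3.42 in KPH2 1. The groups overlapped, with means of 2.72 ± 0.67 (SD, n = 4) and 2.96 ± 0.61 (SD, n = 3), so the mean difference of 0.24 between groups was smaller than either SD. Among KP tumours the difference was lower in KP 5 and KP 8, the 2 with higher muscle scores, than in KP 6 and KP 7. With the muscle score as a covariate in the edgeR fit, the log2 fold change of Fbxo32 was 1.44 with a standard error of 0.34, and that of Trim63 turned to -0.30 with a standard error of 0.59. No member was called in that fit, in which 3 genes of the whole table were called (Add2, Lama5 and Serpinb2, named because they were the only ones) and 1102 had an unadjusted p under 0.05. The score was higher in KPH2 2 to 4 than in all KP tumours, so in the 7 tumours fitted it runs with the genotype, whereas KPH2 1 lay within the KP range. In bulk tissue fewer cells of a type and less RNA per cell cannot be told apart.

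**Figure D2:**
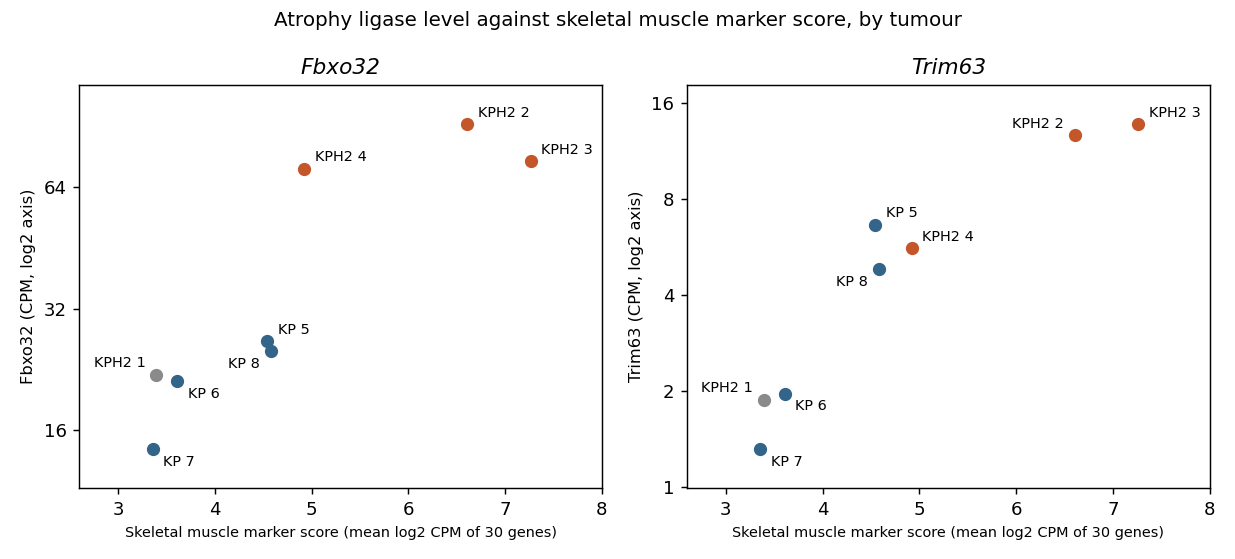
Fbxo32 (left) and Trim63 (right) in CPM on a log2 axis against the muscle score (mean log2 CPM of 30 skeletal muscle fibre genes), 1 point per tumour. Trim63 lies along the score in both groups. Fbxo32 in KPH2 4 (71.3 CPM) stands apart from KP 5 and KP 8 (26.5 and 25.1 CPM), the tumours nearest to it in score.

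Fbxo30 (Entrez Gene 71865, chromosome 10 from 11281330 to 11305750, plus strand), the third ligase subunit, did not share the pattern of the other two. It measured 72.5 CPM in KP 5, 100.3 in KP 6, 70.4 in KP 7 and 67.2 in KP 8, with KPH2 2, 3 and 4 at 79.1, 41.4 and 46.7 CPM and KPH2 1 at 79.6 CPM. KPH2 3 and 4 were below all KP tumours, and KPH2 1 and 2 were within the KP range. The KP mean was 77.6 ± 15.3 CPM (SD, n = 4) and the KPH2 mean 55.7 ± 20.4 CPM (SD, n = 3), with a log2 fold change of -0.49 and a standard error of 0.26. Single tumours moved this value, to -0.82 without KPH2 2 and to -0.32 without KPH2 3. It was counted 412 to 1016 times per library, so the values rest on many reads.

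Of the FOXO factors, Foxo4 was higher in every KPH2 tumour than in any KP tumour, clearly in KPH2 3 and narrowly in the others, and Foxo1 and Foxo3 overlapped widely. Foxo1 (Entrez Gene 56458, chromosome 3 from 52268337 to 52350109, plus strand) measured 21.0 CPM in KP 5, 34.2 in KP 6, 59.8 in KP 7 and 25.1 in KP 8. KPH2 2, 3 and 4 had 74.1, 28.5 and 34.5 CPM and KPH2 1 had 17.4 CPM. Its highest and its lowest level were both in KPH2 tumours, and KP 7, the KP tumour lowest in Fbxo32, was the highest KP tumour in Foxo1. The log2 fold change was 0.37 with a standard error of 0.44, and it turned to -0.16 when KPH2 2 was left out.

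Foxo3 (Entrez Gene 56484, chromosome 10 from 42181845 to 42276695, minus strand) measured 41.5 CPM in KP 5, 31.2 in KP 6, 41.4 in KP 7 and 27.4 in KP 8. KPH2 2, 3 and 4 had 48.4, 29.3 and 34.5 CPM and KPH2 1 had 38.6 CPM. It had the narrowest range of the 8 genes over all 8 tumours, 1.77-fold from lowest to highest, and a log2 fold change of 0.07 with a standard error of 0.23. Leaving out KPH2 2 or KP 8 turned its sign, to -0.15 and -0.048.

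Foxo4 (Entrez Gene 54601, chromosome X from 101254261 to 101260873, plus strand) was nearly constant in KP tumours, with 23.0 CPM in KP 5, 23.8 in KP 6, 23.0 in KP 7 and 23.4 in KP 8. KPH2 2, 3 and 4 had 28.0, 51.5 and 25.5 CPM and KPH2 1 had 26.4 CPM, so all 4 KPH2 tumours lay above all 4 KP tumours, 3 of them narrowly. The KP mean was 23.3 ± 0.347 CPM (SD, n = 4) and the KPH2 mean 35.0 ± 14.3 CPM (SD, n = 3), and the log2 fold change of 0.57 had a standard error of 0.25. KPH2 3 decided most of it, and without that tumour the log2 fold change was 0.19. The 3 FOXO transcripts summed to 93.7 ± 21.1 CPM (SD, n = 4) for KP against 118 ± 29.0 CPM (SD, n = 3) for KPH2 2 to 4 and 82.4 CPM for KPH2 1, with overlap between the groups.

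Mstn (Entrez Gene 17700, chromosome 1 from 53061640 to 53068079, plus strand) was barely counted in these tumours. It reached 10, 17, 9 and 2 counts in KP 5, 6, 7 and 8, 45, 20 and 4 counts in KPH2 2, 3 and 4 and 17 counts in KPH2 1, which correspond to 0.153 to 2.38 CPM in KP tumours and 0.450 to 4.11 CPM in KPH2 2 to 4. Both groups spanned a wide range, 15.5-fold from lowest to highest in KP, and the log2 fold change of 1.004 had a standard error of 0.87. KP 8 and KPH2 4, with muscle scores of 4.58 and 4.92, held the lowest Mstn levels, so Mstn did not order the tumours as the muscle fibre genes did. Without KPH2 2 the log2 fold change was 0.18.

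Klf15 (Entrez Gene 66277, chromosome 6 from 90461043 to 90491803, plus strand) was also sparse, with 29, 4, 38 and 15 counts in KP 5, 6, 7 and 8, 10 counts in each of KPH2 2, 3 and 4 and 34 counts in KPH2 1. In CPM it ran from 0.559 to 5.54 in KP tumours and from 0.914 to 1.12 in KPH2 2 to 4, with 2.66 in KPH2 1. The 3 KPH2 tumours sat together inside the KP range, above KP 6 and below KP 5, 7 and 8. The log2 fold change was -1.20 with a standard error of 0.72, and -0.40 without KP 7.

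**Figure D3:**
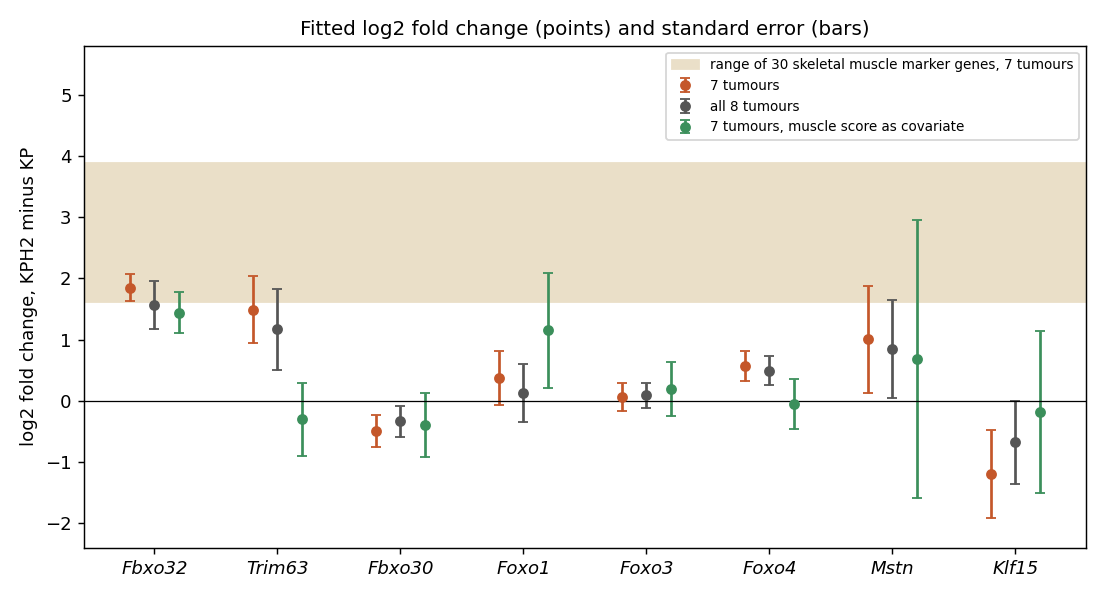
Fitted log2 fold change of KPH2 against KP tumours (points) with standard error (bars) for the 8 genes, over 7 tumours (orange), all 8 (dark grey) and 7 with the muscle score as covariate (green). The band spans the 30 muscle fibre genes in the fit over 7 tumours, 1.61 to 3.89, and of the orange points only Fbxo32, at 1.85, lies inside it, while over all 8 tumours the fibre genes ran from 1.24 to 3.47 and Fbxo32 was at 1.57, and Trim63 with the covariate is at -0.30.

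Levels can be compared between genes per kilobase of transcript, here the joined exon length of the GENCODE vM21 gene. In KP tumours the order of mean CPM per kilobase was Fbxo30 at 14.9 ± 2.95, Foxo4 at 6.68 ± 0.0996, Foxo3 at 4.67 ± 0.955, Foxo1 at 4.04 ± 2.01, Fbxo32 at 3.12 ± 0.784, Trim63 at 1.30 ± 0.878, Klf15 at 0.843 ± 0.798 and Mstn at 0.424 ± 0.350 (SD, n = 4 for each). Only Fbxo30 over Foxo4 and Foxo4 over Foxo3 were neighbours whose KP ranges did not overlap, and below Foxo3 the ranges of all neighbours did. Fbxo32 was nevertheless above Trim63 in each of the 4 KP tumours. In KPH2 2 to 4, Fbxo32 stood first at 11.4 ± 1.61 CPM per kilobase (SD, n = 3), next to Fbxo30 at 10.7 ± 3.93 and Foxo4 at 10.04 ± 4.11, which its range overlapped. Trim63 stayed sixth at 3.76 ± 1.56. The order depends on the gene model, since with the longest RefSeq transcript as length Foxo3 moved to 12.2 CPM per kilobase in KP tumours, second to Fbxo30. In KPH2 2 to 4 it then stood first at 12.96 ± 3.42 (SD, n = 3), ahead of Fbxo32 at 11.4, and Trim63 moved above Foxo1.

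The genes whose log2 CPM followed each member most closely over the 8 tumours were ranked among 14804 others by Pearson r, as a description without a p, since all points share the same libraries and the 2 genotypes. For Fbxo32 they were Eno3 (r = 0.978), then Hook1 (0.977), Myf6 (0.972), AI467606 (0.970) and Pdzrn4 (0.968). For Trim63 they were Fam171a2 (0.979), Smcr7 (0.977), Ckmt2 (0.973), the sarcomeric mitochondrial creatine kinase, Acta1 (0.971), skeletal muscle actin, and 2410002I01Rik (0.959). Both ligases thus had muscle genes among their 5 nearest, though not the same ones. For Mstn the list was Ccdc64 (0.937), Gm10069 (0.907), Epha3 (0.901), Gm12758 (0.893) and Nbr1 (0.892), and for Klf15 it was Mms19 (0.967), Sik3 (0.954), Cln8 (0.948), Mkrn2 (0.947) and Fam129a (0.939). None of these 10 is a muscle fibre marker of the list used here. With the muscle score, r over the 8 tumours was 0.886 for Fbxo32 (Spearman's rho 0.929) and 0.945 for Trim63 (rho 0.929). Without KPH2 2 and 3, the 2 tumours farthest in muscle score, it was 0.799 for Fbxo32 and 0.957 for Trim63. Foxo4 went from 0.773 to -0.05 by the same step, so its relation rested on those 2 tumours. Mstn went from 0.304 to -0.793 and Foxo1 from 0.252 to -0.215, so that neither kept its sign. Fbxo32 and Trim63 were related to each other at r = 0.871.

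Beyond the 8 members, other genes of the same pathways were taken as 6 lists, and no gene of any list passed an adjusted p of 0.05 in the quasi-likelihood test of edgeR with Benjamini-Hochberg adjustment over the 7 tumours. The median log2 fold change of all tested genes was -0.02, with 1.96% called in either direction by edgeR, 17.8% at an unadjusted p under 0.05 and 7.93% called by DESeq2. Of 15 other atrophy ubiquitin ligases, 5 had an unadjusted p under 0.05, DESeq2 called 2, and the median log2 fold change was 0.04. The sarcomeric relatives of Trim63 stood at the top, with Trim55 (MuRF2) at 3.88 ± 0.93 (log2 fold change ± SE, edgeR adjusted p = 0.079) and Trim54 (MuRF3) at 1.85 ± 0.81 (edgeR adjusted p = 0.282). Trim55 ran from 0 to 2.38 CPM in the KP tumours, while KPH2 2, 3 and 4 had 12.2, 18.2 and 3.60 CPM and KPH2 1 had 0.0784 CPM. At the bottom were Cblb (-0.93 ± 0.34, edgeR adjusted p = 0.209), a ligase of receptor kinase signalling, and Traf6 (-0.26 ± 0.18, edgeR adjusted p = 0.488), a ligase of inflammatory signalling. None of 9 tested genes of the SCF core and ubiquitin supply had an unadjusted p under 0.05 or was called by DESeq2. Cul1, the scaffold that carries F-box subunits such as Fbxo32, was at 0.35 ± 0.16, polyubiquitin Ubb at 0.34 ± 0.19, Rbx1, the RING subunit, at -0.11 ± 0.18 and Usp14, a proteasome deubiquitinase, at -0.16 ± 0.16 in log2 fold change ± SE.

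Of 20 FOXO target genes, 5 had an unadjusted p under 0.05 and DESeq2 called 2 (Cdkn1a and Pdk4), with 9 positive and 11 negative log2 fold changes and a median of -0.05. Pdk4, the kinase that shuts glucose out of mitochondria, was at 20.8 CPM in KP 5 and at 5.54 to 9.502 CPM in the other KP tumours, with KPH2 2, 3 and 4 at 61.0, 34.7 and 25.9 CPM and KPH2 1 at 10.97 CPM, and its log2 fold change was 1.83 ± 0.45 (SE, edgeR adjusted p = 0.086). Cdkn1a, the cell-cycle inhibitor p21, had a log2 fold change of 1.12 ± 0.23 (SE, edgeR adjusted p = 0.052), with KPH2 2 to 4 at 39.3 to 66.5 CPM, KP tumours at 18.0 to 29.3 CPM and KPH2 1 at 14.5 CPM. Like Fbxo32, both were higher in KPH2 2 to 4 than in all KP tumours, as were 9.01% of tested genes. As with Fbxo32, KPH2 1 was not above the KP range, lying within or below it. In the opposite direction, Gabarapl1, an autophagy protein of the ATG8 family, and Cdkn1b, the cell-cycle inhibitor p27, were lower in KPH2 2 to 4 (26.8 to 27.3 and 30.4 to 34.4 CPM) than in all KP tumours (31.3 to 40.2 and 37.1 to 47.8 CPM), at -0.46 ± 0.15 and -0.39 ± 0.16 (log2 fold change ± SE, edgeR adjusted p = 0.151 and 0.246), and this pair was chosen with its values in view. KPH2 1, at 46.1 and 59.5 CPM, was above all KP tumours in both. The lowest were the lysosomal protease Ctsl at -0.69 ± 0.37 (edgeR adjusted p = 0.389) and Txnip, a brake on glucose uptake, at -0.62 ± 0.25 (edgeR adjusted p = 0.241).

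Among 14 tested genes of FOXO control by insulin and AKT, 2 had an unadjusted p under 0.05, DESeq2 called 1 (Igf1r), and the median log2 fold change was 0.08. Ppargc1a, the PGC-1α coactivator that opposes FOXO3 in muscle, had a log2 fold change of 1.598 ± 0.586 (SE, edgeR adjusted p = 0.204) and the insulin receptor substrate Irs1 one of 0.59 ± 0.39 (edgeR adjusted p = 0.481). The lowest were Igf1 at -0.47 ± 0.26 (edgeR adjusted p = 0.396) and the PI3-kinase regulatory subunit Pik3r1 at -0.30 ± 0.25 (edgeR adjusted p = 0.582). Igf1r, the IGF1 receptor, was singled out after its values were seen, at 257 to 307 CPM in the 4 KP tumours and 372 to 418 CPM in the 4 KPH2 tumours, including 379.8 CPM in KPH2 1. Its groups did not overlap, but its log2 fold change of 0.48 ± 0.14 had an edgeR adjusted p of 0.118. Over all 8 tumours 3.74% of tested genes were likewise higher without overlap.

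For 15 tested genes of the myostatin pathway, 2 had an unadjusted p under 0.05, DESeq2 called 0, and the median log2 fold change was -0.22 with 11 negative. Gdf11, the closest relative of myostatin, was at 0.36 ± 0.25 (edgeR adjusted p = 0.510) and Bmp1, of the protease family that frees myostatin from its propeptide, at 0.28 ± 0.20 (edgeR adjusted p = 0.521). The activin subunit Inhbb was at -1.19 ± 0.73 (edgeR adjusted p = 0.447) and the ligand trap Fstl3 at -0.96 ± 0.54 (edgeR adjusted p = 0.403). In all 15, the levels of the groups overlapped, while 16.8% of all tested genes did not overlap in 1 direction or the other. Among 12 glucocorticoid and KLF15 genes, 2 had an unadjusted p under 0.05, DESeq2 called 2 (Cebpd and Nr3c1), and the median was 0.08. The stress-response genes Ddit4 and Mt2 were highest, at 0.80 ± 0.65 and 0.71 ± 0.88 (edgeR adjusted p = 0.578 and 0.728). Cebpd, a C/EBP factor, and Tsc22d3 (GILZ) were lowest, at -1.67 ± 0.54 and -0.55 ± 0.30 (edgeR adjusted p = 0.160 and 0.392). The glucocorticoid receptor gene Nr3c1, also singled out after its values were seen, ran from 256.5 to 319 CPM in the KP tumours and was at 189.6, 191.9, 190.1 and 243 CPM in KPH2 2, 3, 4 and 1. The groups did not overlap, with a log2 fold change of -0.55 ± 0.13 (edgeR adjusted p = 0.079). Over all 8 tumours 4.47% of tested genes were likewise lower without overlap.

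**Figure D4:**
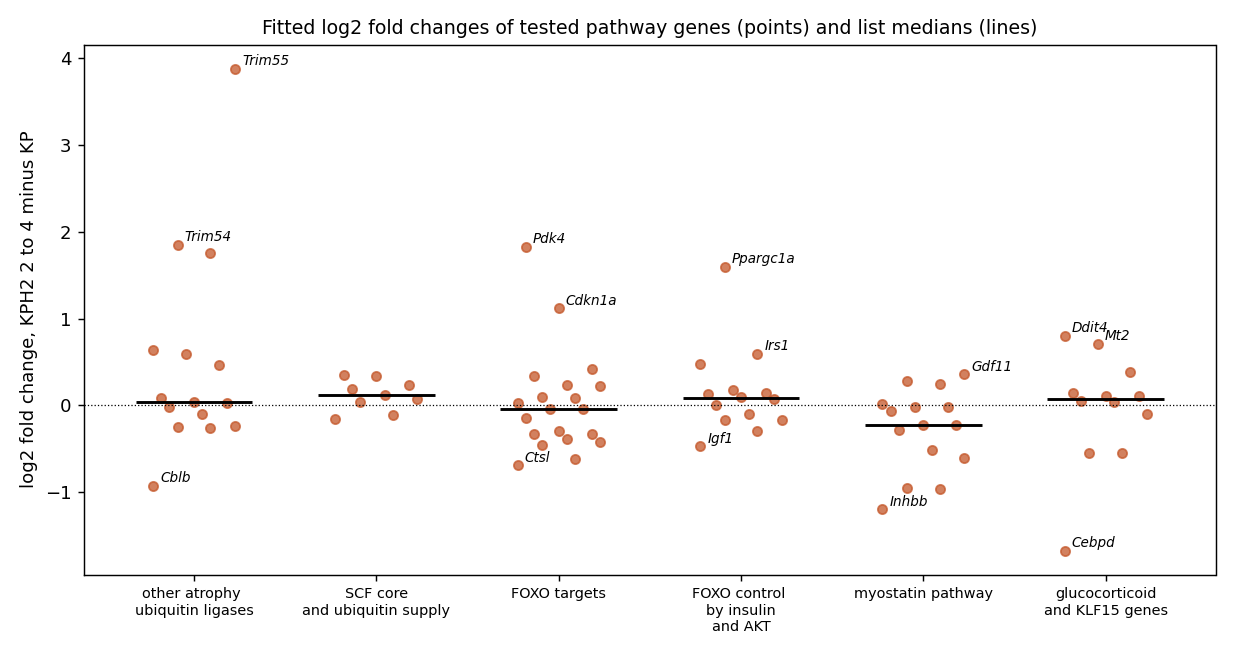
Fitted log2 fold change of KPH2 2 to 4 against KP tumours for each tested gene of 6 pathway lists (points), with the list median (black line) and some of the outermost genes named. List medians lie between -0.22 and 0.12, and Trim55 at 3.88 is the farthest gene.

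Markers of other cells that a section through a muscle tumour can hold were measured as well. Summed levels of fibre and of progenitor markers were higher in KPH2 2, 3 and 4 than in every KP tumour and lower in KPH2 1 than in every KP tumour, and their part in the levels of the 8 genes was not tested. Of the 30 muscle fibre markers all had a positive log2 fold change over the 7 tumours, and 2 rose past the test of edgeR, Eno3 (2.98 ± 0.31, edgeR adjusted p = 0.0092) and Neb (2.23 ± 0.42, edgeR adjusted p = 0.043). Their CPM summed to 1823 to 3416 in KP tumours, to 12884, 19876 and 4374 in KPH2 2, 3 and 4 and to 1505 in KPH2 1. The defining markers Ckm, the muscle creatine kinase, and Acta1 were present in all 8 tumours, Ckm at 2.79 to 108.7 CPM and Acta1 at 54.1 to 946 CPM. KPH2 4 lay within the KP range for both. Of the 30 fibre markers 14 were, like Fbxo32, higher in KPH2 2, 3 and 4 than in all KP tumours. The share among all tested genes was 9.01%. The number of called fibre markers turned on single tumours, with 14 called without KPH2 4, 0 with KPH2 1 included and 24 by DESeq2. Of 10 muscle progenitor and embryonic muscle markers 8 were tested, all with a positive log2 fold change, and 2 rose past the test of edgeR, Myf6 (2.51 ± 0.36, edgeR adjusted p = 0.021) and Myf5 (5.59 ± 1.04, edgeR adjusted p = 0.042), both myogenic regulatory factors. This count also turned on single tumours, with 0 called without KP 7, without KPH2 2 or with all 8 tumours, 5 without KP 6 and 7 by DESeq2. Myf5 was at 0 to 2.38 CPM in the KP tumours, at 48.6, 15.96 and 18.3 CPM in KPH2 2, 3 and 4 and at 0 in KPH2 1. Progenitor markers summed to 38.8 to 136.1 CPM in KP tumours, to 275.8 to 1302 CPM in KPH2 2 to 4 and to 29.0 CPM in KPH2 1. Des made up most of the sum in KP 5, 7 and 8 and in KPH2 1, and the other 9 markers summed to 12.7, 106.3, 2.04 and 7.72 CPM in KP 5, 6, 7 and 8, to 694.4, 1020 and 205.7 CPM in KPH2 2, 3 and 4 and to 4.62 CPM in KPH2 1. KP 6 thus stood apart from the other KP tumours, and Pax7 and Pax3, which define the satellite cell, were too low to be tested. Of 6 cardiac markers, 0 of 4 tested passed the test of edgeR, with 2 at an unadjusted p under 0.05, 1 called by DESeq2 and 2 called by edgeR without KP 6. The 2 with a positive log2 fold change were Actc1 (4.56 ± 1.34, edgeR adjusted p = 0.131) and Tnnt2 (3.73 ± 0.92, edgeR adjusted p = 0.085), a cardiac actin and a cardiac troponin that developing skeletal muscle also makes. Actc1 ran from 0 to 19.98 CPM in KP tumours and from 37.8 to 227.4 CPM in KPH2 2 to 4, and it was at 0 in KPH2 1. Nppb and Tnni3 had negative values of -0.40 and -0.05, and Myh6, which defines heart muscle, was at 0 in 6 of the 8 tumours.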

How the data were processed

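Total RNA from formalin-fixed, paraffin-embedded tumour sections was made into stranded libraries after ribosomal RNA depletion. Per the labels and the study's methods, the authors aligned reads to GRCm38 with STAR 2.4 and made the deposited counts with htseq-count (HTSeq 0.6.1), from unique alignments to RefSeq genes and without normalization. The strand setting of the counting is not given in the sources used here. The authors also deposited log2 values, regularized by DESeq2 1.6, for 7 and for 8 tumours. Regularization shrinks genes of low count, so it understates their differences, and these values served only as an alternative.

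The 8 members and all gene lists were chosen with earlier results of these data known. All 8 members, the deleted gene, and in each pathway list the 2 highest and the 2 lowest log2 fold changes were named, with the 5 nearest genes by Pearson r for 4 members and the marker genes that passed the test. Other genes were named after their values were seen. One allele shared by both groups and 1 list gene are not reported here.

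Counts were fitted in R 4.3.3 with edgeR 4.0.16 (TMM, filterByExpr with a minimum count of 10 and a minimum total of 15, robust quasi-likelihood test, no covariate) over 7 tumours, with p-values adjusted by Benjamini-Hochberg across every tested gene and a threshold of 0.05. Standard errors were derived from the fold change and its F statistic. CPM used TMM library sizes over all 8 tumours, and log2 CPM a prior count of 2. Total counts ran from 6463221 to 13155510, and the biological coefficient of variation was 0.313 over the 7 tumours. Levels per kilobase used exon lengths of GENCODE vM21 (GRCm38), and positions and promoters are from RefSeq. The labels do not say that libraries came from separate mice beyond 1 tumour each, so errors describe the spread between these tumours. The closest libraries, KP 6 and KP 8, differed beyond sampling noise (chi-square of 28.3 per degree of freedom), and each was counted as 1 sample. The fits were tested on simulated counts.

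Alternatives were all 8 tumours, DESeq2 size factors or upper-quartile scaling, other count filters, the muscle score as a covariate, non-robust estimates in edgeR, DESeq2 1.42.0, each tumour left out in turn, another prior count, the authors' regularized log2 values, and another transcript length.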

Additional observations from a re-analysis of the deposited data

Results flagged for a closer look

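Among 26 groups of values from the 4 KP or the 4 KPH2 tumours that were examined, 3 held a tumour standing far from the others, meaning that its gap to the nearest tumour took a larger part of the range of its group than Dixon's test allows. Chance alone gives about 1 in 20. Fbxo30 in KP 6, at 100.3 CPM, was separated from the other KP tumours by 0.839 of the KP range. Foxo4 in KPH2 3, at 51.5 CPM, was separated from the other KPH2 tumours by 0.906 of their range, and this is the tumour with the highest muscle score (7.26). Klf15 in KPH2 1, at 2.66 CPM and 34 counts, was separated from the other KPH2 tumours by 0.879 of their range, and each of those had 10 counts. KPH2 1 is the tumour given apart in all comparisons. What lies behind the 3 values was not tested.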

How the results depend on the processing

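Once the muscle score was a covariate, fitted log2 fold changes were 1.44 for Fbxo32, -0.30 for Trim63, -0.053 for Foxo4, 1.15 for Foxo1 (0.37 without it) and -0.18 for Klf15 (-1.20 without it), and the fitted Fbxo32 minus Trim63 difference was 1.75 in place of 0.36. That fit spends 1 more of few degrees of freedom, and its score separates KPH2 2 to 4 from KP tumours. What lies behind these shifts was not tested. The authors' regularized log2 values gave a mean difference of 1.19 for Fbxo32 in place of 1.89 and of 0.80 for Trim63 in place of 1.65. Genes called in the whole table numbered 292, and 1 with all 8 tumours, 3 with the covariate, 1179 by DESeq2, and 55 (without KPH2 2) to 349 (without KP 5) when single tumours were left out. In the 6 pathway lists together 0 genes were called, 1 (Cdkn1a) with upper-quartile scaling, no filter or no robust estimates, 7 by DESeq2, and 0 to 1 (Pdk4, without KP 5) when single tumours were left out. The log2 fold change of Fbxo32 without single tumours ran from 1.70 to 1.96, that of Trim63 from 1.23 to 1.93 and their difference from 0.03 to 0.62. Foxo1 changed sign without KPH2 2 and Foxo3 without KPH2 2 or KP 8, and the signs of Fbxo30, Foxo4, Mstn and Klf15 held in every such fit. A minimum mean count of 50 dropped Mstn and Klf15, which limits what can be said of them. No paired analysis was possible because the replicate numbers of the groups, 5 to 8 and 1 to 4, are not shared.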

Other observations

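Every marker gene of vessels and macrophages had a negative log2 fold change of KPH2 2 to 4 against KP tumours, although none passed the test of edgeR over the 7 tumours. Without KP 5, 1 endothelial, 1 macrophage and 1 adipocyte marker were called. Of 8 endothelial markers, 0 were called by edgeR, 5 had an unadjusted p under 0.05 and 3 were called by DESeq2, with a median log2 fold change of -0.58. They summed to 337.1 to 574.2 CPM in KP tumours, to 283 to 314 CPM in KPH2 2 to 4 and to 234.7 CPM in KPH2 1, without overlap between the groups. Of 8 macrophage markers, 0 were called by edgeR, 3 had an unadjusted p under 0.05 and 2 were called by DESeq2, with a median of -0.44. They summed to 1530 to 2525 CPM in KP tumours, to 1019 to 1650 CPM in KPH2 2 to 4 and to 1143 CPM in KPH2 1, and here the groups overlapped. Of 8 smooth muscle markers 3 had a positive and 5 a negative log2 fold change, with a median of -0.21, 3 at an unadjusted p under 0.05 and 3 called by DESeq2. The highest was Actg2, the enteric smooth muscle actin, at 2.96 ± 1.04 (SE, edgeR adjusted p = 0.195), and 1 fell past the test of edgeR, Cnn1 (calponin 1, log2 fold change -3.69 ± 0.73 (SE), edgeR adjusted p = 0.049), at 7.83 to 35.3 CPM in the KP tumours and 0.470 to 1.40 CPM in the 4 KPH2 tumours. That call was lost with all 8 tumours, no filter on low counts, a minimum mean count of 50 or the muscle score as covariate. It was also lost without KP 6, KP 8, KPH2 2, KPH2 3 or KPH2 4. The groups of Cnn1 did not overlap over all 8, and 4.47% of tested genes were likewise lower without overlap. Of 10 adipocyte markers only Fabp4, Plin4 and Lipe were tested, 0 of the 3 were called by edgeR or DESeq2, 2 had an unadjusted p under 0.05, and the defining marker Adipoq was counted 32 times in KP 8 and 0 to 4 times in the other tumours. The part of these cells in the levels of the atrophy genes was not tested.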
